A study of Mus musculus with 7 samples.

Results

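Mitochondrial ribosomal protein genes were followed in messenger RNA of the mouse left ventricle. The members were all rows of the deposited count table whose Ensembl identifier maps to a mouse symbol that starts with Mrpl or Mrps and goes on with a number, which gave 78 of 22027 genes. By symbol, 49 encode proteins of the large subunit and 29 encode proteins of the small subunit. The rule used names only and no measured value. The name table holds 83 such symbols, and the other 5, Mrpl23-ps1, Mrpl48-ps, Mrps36-ps1, Mrps36-ps2 and Mrps36-ps3, were not analysed here. The study set 3 samples labelled G3 PGC1aOE, which are telomerase-deficient (G3) mice with PGC1alpha overexpressed, against 4 samples labelled G3, which are telomerase-deficient alone. The age of 12 months, the strain (C57BL/6J) and the telomerase-deficient background are shared by both groups, and the labels do not name the promoter or the cell type that drives PGC1alpha. No animal with intact telomerase entered the comparison. Nothing in the labels says whether the samples came from separate litters, so a p-value measures the spread between these 7 libraries.

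Mitochondria carry a small genome whose messages encode core subunits of the respiratory chain, and they translate those messages on ribosomes of their own. The ribosomal RNAs come from the mitochondrial genome, whereas every protein of these ribosomes is encoded in the nucleus, made in the cytosol and imported. The small subunit reads the message and the large subunit joins the amino acids, and the ventricle, whose beating rests on oxidative phosphorylation, holds this machinery in quantity. PGC1alpha, encoded by Ppargc1a, is a coactivator that works through NRF1, GABP (an ETS family factor) and ERR proteins and is known for raising genes of mitochondrial biogenesis, to which the mitochondrial ribosomal proteins belong.

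The promoters of 69 of the 78 members were found in RefSeq sequence of the GRCm38.p6 build, as the 250 bases before to 50 after each annotated start. These 10 were chosen because the results turn on their members: the member of highest level in each subunit, short members with low p-values, the Mrps18 paralogs that differ in their subunit, and a pair of long members with fold changes below 0. Apart from Mrpl20, which has the lowest p-value and no match, they were picked among members that hold a match. Of the 68 tested members with a promoter 33 hold no ETS, NRF1 or YY1 match, among them Mrpl30 and Mrpl12, which are next in level to Mrpl42. Capitals mark exact matches on either strand to CCGGAAG or CTTCCGG (the core bound by ETS factors), GCGCATGC or GCATGCGC (NRF1), and GATGGCG or CGCCATC (YY1). AAGGTCA or TGACCTT (ERR) was also searched and is left in lower case: of these windows, Mrps21 alone holds it, once in each form.
Mrpl42, chr10:95501900-95502199, minus strand: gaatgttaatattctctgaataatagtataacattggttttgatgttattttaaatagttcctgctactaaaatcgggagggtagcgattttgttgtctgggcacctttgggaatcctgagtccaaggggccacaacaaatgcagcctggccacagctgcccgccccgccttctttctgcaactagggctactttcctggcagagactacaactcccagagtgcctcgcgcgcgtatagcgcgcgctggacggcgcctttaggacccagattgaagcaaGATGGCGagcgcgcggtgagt
Mrps21, chr3:95871465-95871764, minus strand: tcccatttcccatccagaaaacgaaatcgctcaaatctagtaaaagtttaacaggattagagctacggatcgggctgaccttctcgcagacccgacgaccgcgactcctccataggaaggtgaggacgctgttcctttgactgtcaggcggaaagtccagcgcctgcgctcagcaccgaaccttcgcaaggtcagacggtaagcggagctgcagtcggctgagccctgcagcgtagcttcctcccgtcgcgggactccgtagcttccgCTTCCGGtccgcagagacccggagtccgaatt
Mrpl20, chr4:155802628-155802927, plus strand: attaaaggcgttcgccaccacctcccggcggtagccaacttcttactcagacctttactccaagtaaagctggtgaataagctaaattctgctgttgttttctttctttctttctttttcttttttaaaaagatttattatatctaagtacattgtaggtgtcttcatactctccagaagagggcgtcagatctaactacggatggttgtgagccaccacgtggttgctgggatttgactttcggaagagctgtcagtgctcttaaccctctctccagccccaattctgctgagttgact
Mrpl52, chr14:54426659-54426958, plus strand: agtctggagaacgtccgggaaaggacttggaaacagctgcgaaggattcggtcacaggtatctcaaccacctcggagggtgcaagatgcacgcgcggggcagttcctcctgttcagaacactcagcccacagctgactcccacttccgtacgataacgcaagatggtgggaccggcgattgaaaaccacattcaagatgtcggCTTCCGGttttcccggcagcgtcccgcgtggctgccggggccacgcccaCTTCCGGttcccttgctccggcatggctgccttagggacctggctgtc
Mrps16, chr14:20393441-20393740, minus strand: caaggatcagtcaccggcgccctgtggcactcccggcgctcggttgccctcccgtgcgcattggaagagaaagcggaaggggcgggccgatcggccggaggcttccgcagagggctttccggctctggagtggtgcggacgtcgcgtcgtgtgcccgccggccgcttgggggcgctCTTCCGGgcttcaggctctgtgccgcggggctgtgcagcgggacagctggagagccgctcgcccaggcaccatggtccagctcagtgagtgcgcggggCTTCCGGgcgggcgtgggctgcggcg
Mrps18c, chr5:100798509-100798808, plus strand: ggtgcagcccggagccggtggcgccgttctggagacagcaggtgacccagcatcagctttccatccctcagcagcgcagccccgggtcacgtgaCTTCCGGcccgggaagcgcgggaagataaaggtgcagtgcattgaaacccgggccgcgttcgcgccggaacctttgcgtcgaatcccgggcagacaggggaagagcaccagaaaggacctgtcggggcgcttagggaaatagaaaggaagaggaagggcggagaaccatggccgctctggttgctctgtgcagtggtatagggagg
Mrps18a, chr17:46110754-46111053, plus strand: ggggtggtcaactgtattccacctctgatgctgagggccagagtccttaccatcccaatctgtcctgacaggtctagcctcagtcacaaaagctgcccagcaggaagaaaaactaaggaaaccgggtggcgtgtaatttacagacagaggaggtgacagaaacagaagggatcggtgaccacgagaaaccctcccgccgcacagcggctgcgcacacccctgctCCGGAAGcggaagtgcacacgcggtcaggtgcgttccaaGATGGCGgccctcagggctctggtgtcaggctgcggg
Mrps18b, chr17:35916391-35916690, minus strand: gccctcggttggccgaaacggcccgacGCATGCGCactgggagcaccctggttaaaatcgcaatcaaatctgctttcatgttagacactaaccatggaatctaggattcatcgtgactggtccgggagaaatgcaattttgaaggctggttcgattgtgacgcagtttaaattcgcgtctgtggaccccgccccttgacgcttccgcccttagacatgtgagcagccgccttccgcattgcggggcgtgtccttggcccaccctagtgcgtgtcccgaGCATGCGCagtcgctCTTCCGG
Mrpl39, chr16:84735195-84735494, minus strand: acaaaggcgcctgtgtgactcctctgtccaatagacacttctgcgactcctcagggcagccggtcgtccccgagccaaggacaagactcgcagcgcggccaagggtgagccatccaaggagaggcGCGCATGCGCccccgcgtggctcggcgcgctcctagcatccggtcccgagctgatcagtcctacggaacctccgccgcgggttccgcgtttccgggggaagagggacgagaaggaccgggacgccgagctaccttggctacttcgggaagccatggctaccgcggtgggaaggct
Mrpl9, chr3:94443086-94443385, plus strand: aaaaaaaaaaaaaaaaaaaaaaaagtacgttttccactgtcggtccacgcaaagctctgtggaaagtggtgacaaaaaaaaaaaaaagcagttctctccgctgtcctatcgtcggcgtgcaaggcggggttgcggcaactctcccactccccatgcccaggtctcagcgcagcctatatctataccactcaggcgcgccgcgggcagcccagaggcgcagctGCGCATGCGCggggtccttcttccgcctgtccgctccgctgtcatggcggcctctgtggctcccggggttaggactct

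The ETS core was in the promoters of 26 of the 69 members (37.7%). This held for 19.6% of the 9951 tested genes with a promoter entry and 9.93% of all 27025 genes with one. Each gene was counted once, with a match if any of its listed windows of 300 bases held one. The ETS core was in 42.3% of the small subunit promoters and in 34.9% of the large subunit promoters. The NRF1 match was in 8 member promoters (11.6%), against 5.88% of tested genes, and 7 of the 8 belonged to the large subunit. The YY1 match was also in 8 (11.6%, against 7.4% of tested genes), and the ERR match in 4 (5.8%, against 3.85%). Both NRF1 matches of Mrpl39 and of Mrpl9 overlap, since the 2 forms of this motif share letters: they start at -125 and -123 in Mrpl39 and at -28 and -26 in Mrpl9, counted from the start site. A match is a run of letters in this window and does not show that a factor binds there.

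The libraries labelled G3 PGC1aOE were not higher in Ppargc1a itself. Its level was 33.86, 14.44 and 19.11 FPKM in G3 PGC1aOE 1 to 3, against 31.14, 18.67, 38.95 and 28.51 FPKM in G3 1 to 4. The log2 fold change, G3 PGC1aOE minus G3 throughout, was -0.38 (SE 0.34, 95% interval -1.12 to 0.36, edgeR adjusted p = 0.847). It was -0.81 without G3 PGC1aOE 1 and -0.15 without G3 PGC1aOE 2, the libraries with the highest and the lowest level of that group. A direction below is therefore one between libraries as labelled. Levels here are the deposited FPKM (reads scaled to gene model length and library total), rescaled with TMM library factors so that libraries can be compared. Totals ran from 10106705 to 16056740 counts per library.

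Of the 78 members, 77 passed the filter on low counts. The exception, Mrpl53, had 0, 3 and 1 counts in G3 PGC1aOE 1 to 3, against 0, 2, 1 and 0 counts in G3 1 to 4, and its exons overlap those of another counted gene, Gm42688. Among the 77, mean levels over the 7 libraries ran from 5.96 FPKM for Mrps22 to 467 FPKM for Mrpl42, a span of 78.4-fold on the same per-length scale. The median level was 41 FPKM for large subunit genes and 32.2 FPKM for small subunit genes. Short gene models stood higher: the median was 70.3 FPKM among members of up to 1057 bp, the median length of all 78, and 27 FPKM among longer ones. Across the 77 members the Spearman correlation of mean FPKM with length was -0.78, a description of points that share all 7 libraries and whose level itself was divided by length.

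**Figure D1:**
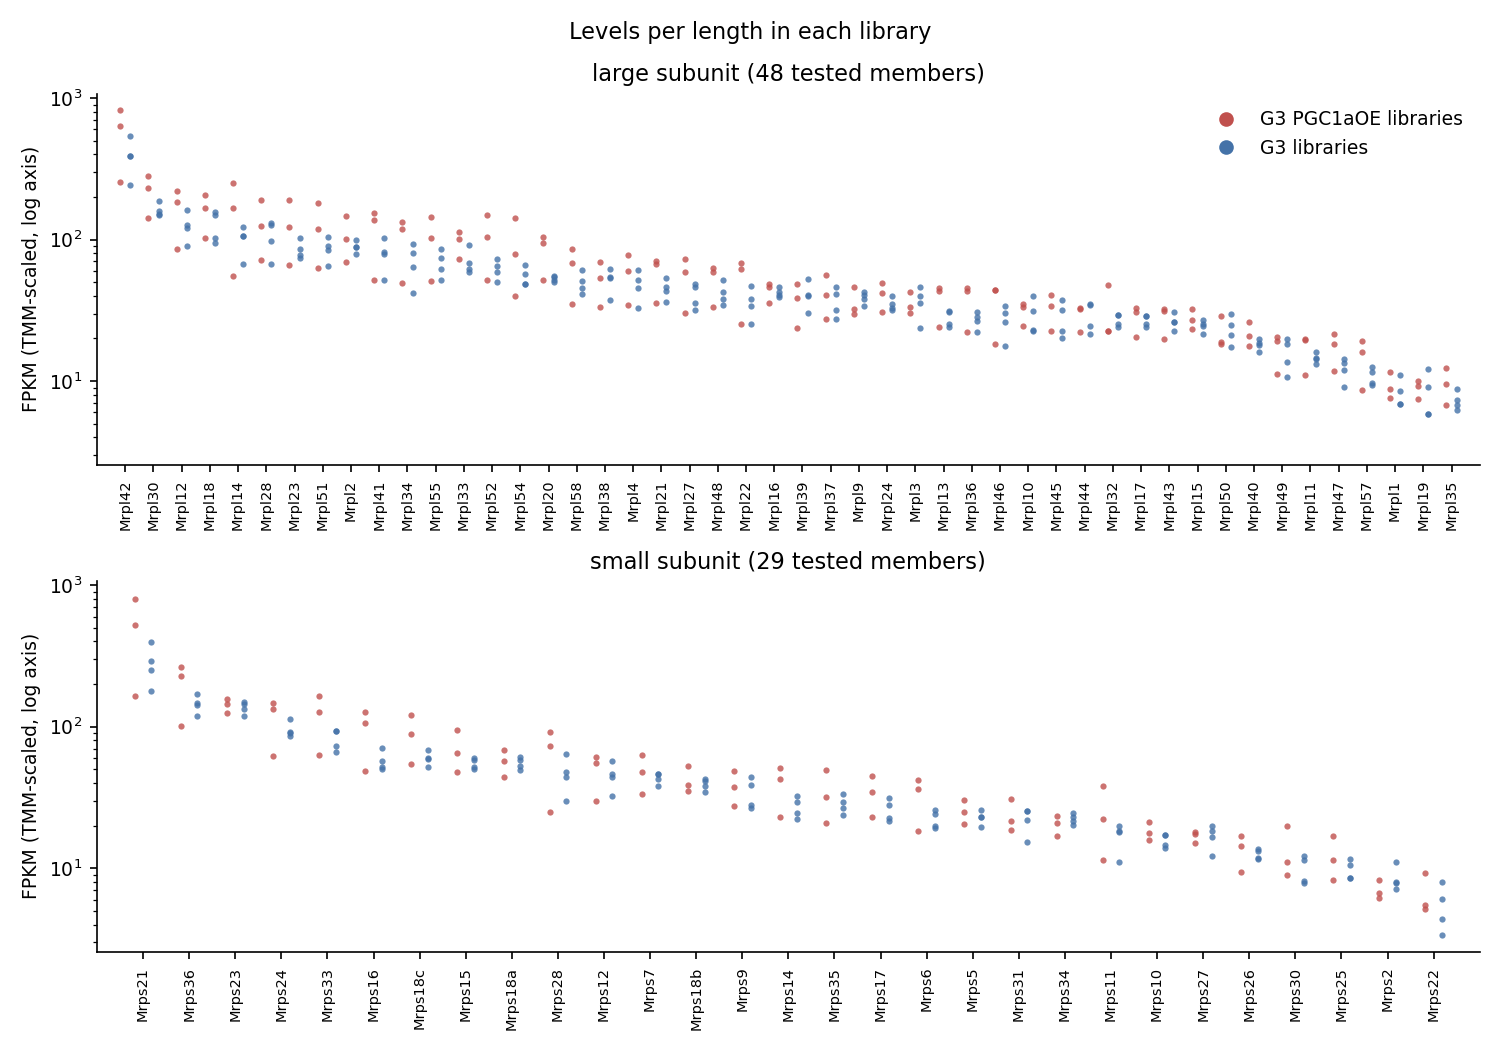
Level of each tested member in FPKM (TMM-scaled, log axis) in every library, 1 point per library, with members ordered by mean level within their subunit and G3 PGC1aOE to the left of G3. Mrpl42 stands highest in the large subunit and Mrps21 in the small subunit, and the groups overlap in every member.

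The most abundant message of the large subunit was that of Mrpl42, a protein that bacterial ribosomes lack. It had 254.7, 635.2 and 818 FPKM in G3 PGC1aOE 1 to 3, against 243.5, 389.1, 391 and 535.6 FPKM in G3 1 to 4, with means of 569 ± 287 FPKM in G3 PGC1aOE and 390 ± 119 FPKM in G3 (SD, n = 3 and 4). The groups overlapped, with G3 PGC1aOE 1 near the bottom and the other two G3 PGC1aOE libraries above every G3 library. Next came Mrpl30, the counterpart of a bacterial large subunit protein, at 219 ± 70.6 FPKM in G3 PGC1aOE and 162 ± 17.2 FPKM in G3. Mrpl12, which forms the flexible stalk that translation factors dock on and in human cells also binds the mitochondrial RNA polymerase, averaged 164 ± 69.6 FPKM in G3 PGC1aOE and 125 ± 29.3 FPKM in G3. The differences in these 3 genes were smaller than the spread among the G3 PGC1aOE libraries.

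In the small subunit, Mrps21, the counterpart of bacterial S21 and at 398 bp the shortest member, had 164.8, 794.8 and 525.5 FPKM in G3 PGC1aOE 1 to 3, against 177.4, 293.3, 250.6 and 398.5 FPKM in G3 1 to 4. G3 PGC1aOE 1 was the lowest of the 7 libraries and G3 PGC1aOE 2 the highest. Its log2 fold change of 0.82 was the largest of any member and carried the widest error among those described here (SE 0.46, 95% interval -0.19 to 1.84, edgeR adjusted p = 0.847). Mrps36 averaged 198 ± 85.6 FPKM in G3 PGC1aOE and 144 ± 20.7 FPKM in G3. Its protein, named for the small subunit, is now placed in the 2-oxoglutarate dehydrogenase complex of the citric acid cycle. Mrps23 averaged 142 ± 16.7 FPKM in G3 PGC1aOE and 137 ± 14.1 FPKM in G3.

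At the low end, Mrps22 and Mrps25, small subunit proteins with no bacterial counterpart, averaged 6.6 ± 2.27 and 12.2 ± 4.37 FPKM in G3 PGC1aOE, against 5.47 ± 2.04 and 9.79 ± 1.48 FPKM in G3. In the large subunit, Mrpl35, the longest model at 3715 bp, averaged 9.52 ± 2.76 FPKM in G3 PGC1aOE and 7.28 ± 1.08 FPKM in G3. Mrpl19 averaged 8.9 ± 1.29 FPKM in G3 PGC1aOE and 8.22 ± 2.99 FPKM in G3, and Mrpl1, which sits at the stalk beside the exit of used transfer RNA, 9.34 ± 2.1 FPKM in G3 PGC1aOE and 8.36 ± 1.94 FPKM in G3. Mrpl11, the third of the longest large subunit members beside Mrpl35 and Mrpl1, averaged 16.8 ± 4.96 FPKM in G3 PGC1aOE and 14.5 ± 1.19 FPKM in G3. None of these differences passed the test.

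The fold changes of the members lay mostly on one side of 0, while no single member passed. Of the 77, 71 had a positive log2 fold change and 6 a negative one, with a median of 0.28 and a range from -0.27 (Mrps2) to 0.82 (Mrps21). Of all 12674 tested genes, 50.9% were positive and the median was 0.0076. With edgeR's quasi-likelihood test and Benjamini-Hochberg adjustment over those genes, no member had an adjusted p of at most 0.05, and 0% of all tested genes did. At an unadjusted p under 0.05, 3 members were higher and 0 lower, against 3.05% of all tested genes higher and 1.27% lower, so that the count of members is near the background. DESeq2 called no member at an adjusted p of at most 0.05 (0.00566% of all genes it tested) and 3 members had an unadjusted DESeq2 p under 0.05 (3.99% of all). With limma voom and quality weights no member was called and 12 had an unadjusted p under 0.05 (8.81% of all). With the replicate number as a block no member was called (0.0318% of all) and 9 had an unadjusted edgeR p under 0.05 (9.05% of all). No member had groups that did not overlap, against 2.19% of tested genes with all G3 PGC1aOE libraries above all G3 libraries and 2.39% with all below. In bulk tissue, a change in the number of cells of a type and a change in RNA per cell cannot be told apart.

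The members moved together by library, and the libraries of one label stood at both ends. Deviations of the 77 members from their own means were taken in log2 CPM (counts scaled to the TMM-adjusted library total, on a log2 axis). Their median was -0.41, 0.47 and 0.38 in G3 PGC1aOE 1 to 3, against -0.38, -0.16, -0.014 and 0.11 in G3 1 to 4. G3 PGC1aOE 2 was the highest library for 44 members and G3 PGC1aOE 3 for 24, while G3 PGC1aOE 1 was the lowest for 37 and G3 1 for 24. In 47 of 77 members both G3 PGC1aOE 2 and G3 PGC1aOE 3 exceeded every G3 library, which held for 15% of all tested genes. In 40 members G3 PGC1aOE 1 was below every G3 library, which held for 16.3% of all tested genes, and in 0 members it was above every one. Over the 2926 pairs of members the median Pearson correlation across libraries was 0.74, a description that rests on the same 7 libraries each time. The same value was not computed for other genes. Other short genes showed the same split of the G3 PGC1aOE libraries. Median deviations in G3 PGC1aOE 1 to 3 were -0.59, 0.81 and 0.50 for Complex I subunits. For cytosolic ribosomal proteins they were -0.46, 0.67 and 0.65, with G3 3 lowest at -0.63. For other tested genes of up to 1057 bp they were -0.25, 0.44 and 0.27.

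**Figure D2:**
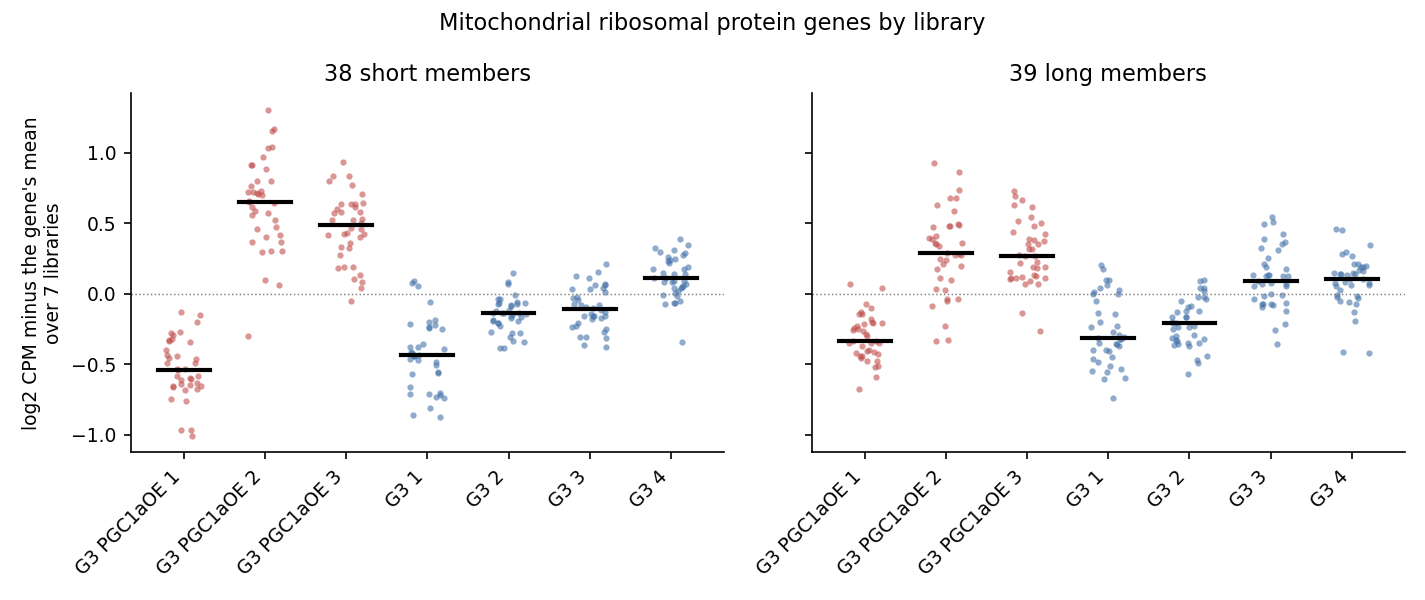
Deviation of each tested member from its own mean over the 7 libraries, in log2 CPM, by library, 1 point per member, with 38 short members in the left panel and 39 long members in the right panel (divided at 1057 bp), G3 PGC1aOE libraries to the left of G3 libraries and lines at the medians. The medians of short members are 0.65 and 0.48 in G3 PGC1aOE 2 and 3 and -0.54 in G3 PGC1aOE 1, and those of long members are 0.29, 0.27 and -0.34 in the same libraries.

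The same split runs along a number in the sample descriptions, whose meaning the labels do not give. G3 PGC1aOE 1 carries the number 55 and G3 1, 2 and 3 carry 40, 67 and 50. G3 PGC1aOE 2 and 3 carry 81 and 82 and G3 4 carries 83. The descriptions also hold a text, PCG2, PCG3 and PCG3 in G3 PGC1aOE 1 to 3, against CG2, CG3, G2 and PG3 in G3 1 to 4. The labels do not give its meaning either. The mean log2 CPM of the members was 5.55 ± 0.48 in G3 PGC1aOE and 5.30 ± 0.20 in G3 (SD over libraries, n = 3 and 4), a difference of 0.24. Among libraries numbered below 80, G3 PGC1aOE minus G3 was -0.24, with 1 library against 3. Among those numbered 80 and above it was 0.31, with 2 libraries against 1. By member, 70 of 77 were lower in the first set and 66 of 77 were higher in the second. The pooled direction therefore did not hold within both sets. This turn was not particular to the members. For mean log2 CPM over all tested genes the differences in the 2 sets were 0.042 and 0.038. They were -0.096 and 0.37 for other tested genes of up to 1057 bp, and 0.068 and -0.021 for longer ones. For Complex I subunits they were -0.32 and 0.53, and for cytosolic ribosomal proteins -0.20 and 0.64. The number in the descriptions was also used as a covariate of 2 levels, below 80 or 80 and above. With it the median log2 fold change of the members was 0.0097, and 42 of 77 were positive. With the text as a covariate (holding G2 or not) the median was 0.189, and 65 of 77 were positive. Whether the number or the text marks a batch was not tested.

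Leaving out one library moved the size of the pattern. Without G3 PGC1aOE 1 the median was 0.53, 73 of 77 members were positive and 36 had an unadjusted edgeR p under 0.05, where 19.1% of tested genes did, but the lowest adjusted p of any member was 0.0982. Without G3 PGC1aOE 2 the median was 0.084 and 56 members were positive.

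The 2 subunits differed little. Large subunit members had a median log2 fold change of 0.32 (44 of 48 positive) and small subunit members of 0.27 (27 of 29 positive), a difference of medians of 0.048. By library the large subunit median deviation was -0.44, 0.47 and 0.39 in G3 PGC1aOE 1 to 3, against -0.38, -0.16, -0.04 and 0.14 in G3 1 to 4, and that of the small subunit was -0.34, 0.47 and 0.28 in G3 PGC1aOE, against -0.32, -0.19, 0.0095 and 0.059 in G3. Both subunits therefore stood highest in the same library and lowest in the same library. Moving Mrps30 and Mrps18a, whose proteins sit in the large subunit of the solved ribosome, to that class and leaving out Mrps36 kept the medians at 0.32 for the large subunit and 0.27 for the small subunit. Mrps30 averaged 13.3 ± 5.72 FPKM in G3 PGC1aOE and 9.89 ± 2.28 FPKM in G3.

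The Mrps18 paralogs, which descend from the counterpart of one bacterial protein, differed among themselves. Mrps18c, whose promoter above carries an ETS core, had 54.44, 88.97 and 120.2 FPKM in G3 PGC1aOE 1 to 3, against 51.66, 60.25, 59.55 and 68.3 FPKM in G3 1 to 4. It had a log2 fold change of 0.55 (SE 0.26, edgeR adjusted p = 0.847), and only G3 PGC1aOE 1 fell among the G3 values. Mrps18b, with NRF1 and ETS matches, averaged 42.2 ± 9.57 FPKM in G3 PGC1aOE and 39.2 ± 3.51 FPKM in G3. Mrps18a, the paralog of the large subunit, with ETS and YY1 matches, averaged 56.4 ± 11.9 FPKM in G3 PGC1aOE and 55.4 ± 5.43 FPKM in G3. The differences of Mrps18b and Mrps18a were smaller than the SD of either group, with log2 fold changes of 0.11 and 0.027, and the differences between paralogs were not tested.

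Length separated the members more than subunit did. All 38 tested short members had a positive log2 fold change, with a median of 0.44, whereas 33 of 39 long members were positive, with a median of 0.16. The members next to the division at 1057 bp were Mrpl12 at 1042 bp and Mrpl33 at 1072 bp. Within the large subunit the medians were 0.42 for short and 0.16 for long members, and within the small subunit they were 0.45 for short and 0.16 for long members. The Spearman correlation of fold change with length was -0.53 over the 77 members, -0.56 over the 48 of the large subunit and -0.5 over the 29 of the small subunit, against -0.34 over all 12674 tested genes. These points share the same libraries and are given as a description.

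The same relation was present in genes outside the family. Other tested genes of up to 1057 bp had a median of 0.26 on the log2 scale and were positive in 79.8% of 1862 cases, and longer ones had a median of -0.039 and were positive in 45.6% of 10735 cases. From 398 to 704 bp, all 19 tested members were positive with a median of 0.54, beside 0.51 for 386 other genes in that range, of which 92.2% were positive. From 705 to 1057 bp the medians were 0.35 for 19 members and 0.21 for 1462 others, and from 1058 to 1531 bp they were 0.14 for 19 members and 0.078 for 2467 others. From 1532 to 3715 bp, 17 of 20 members were positive with a median of 0.19, beside -0.046 for 6485 others, of which 44.4% were positive. The gap between members and other genes of their length was thus smallest among the shortest genes.

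**Figure D3:**
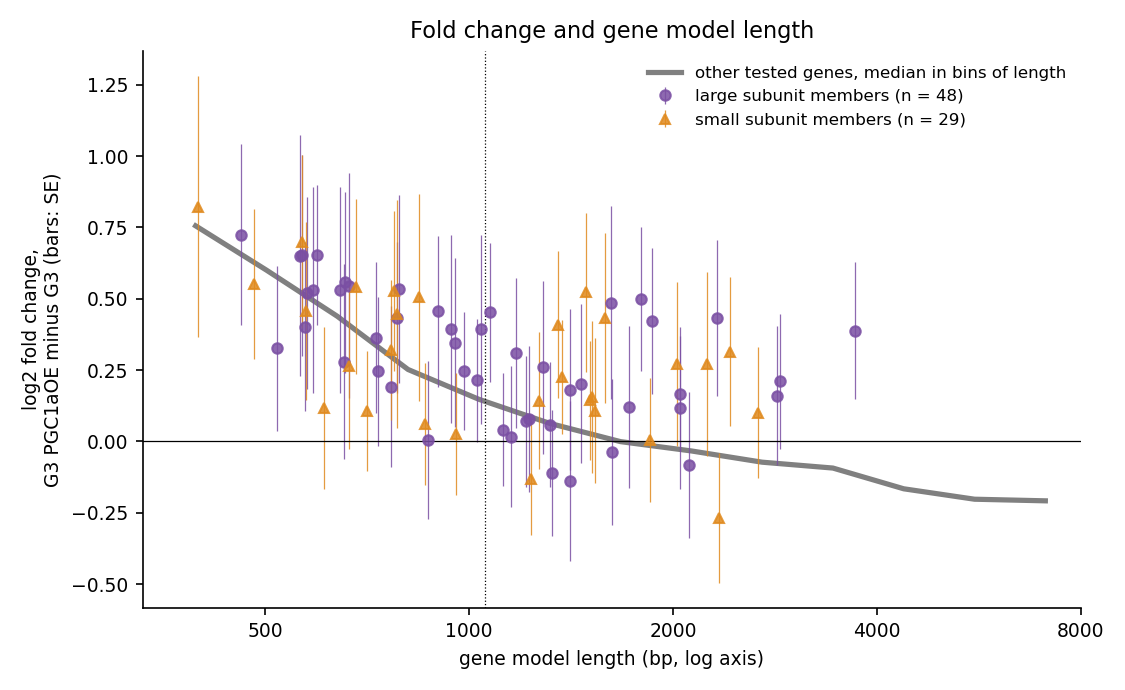
Log2 fold change (G3 PGC1aOE minus G3, bars show SE) of the 77 tested members against gene model length in bp (log axis), with the median of all other tested genes in bins of length as a grey line and the division at 1057 bp dotted. Short members lie around the grey line, and of the members of 1532 to 3715 bp 17 of 20 lie above 0, where the line is near or below 0.

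Taking a fitted trend over length out of each library's counts left a median of 0.092 for all members, with 53 of 77 positive. It was 0.045 for short members and 0.15 for long ones, so the order of the length classes turned round. By library, the short minus long difference in median deviation was -0.20, 0.37 and 0.22 log2 CPM among members in G3 PGC1aOE 1 to 3, against -0.12, 0.071, -0.20 and 0.0085 in G3 1 to 4. Among all other tested genes it was -0.33, 0.51 and 0.31 in G3 PGC1aOE 1 to 3, against -0.22, -0.039, -0.23 and 0.023 in G3 1 to 4. The members and the other genes had the same sign in each library except G3 2. The part of RNA quality or library preparation in this pattern was not tested.

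The lowest p-values belonged to short members. Mrpl20, the counterpart of a bacterial protein that helps the large subunit assemble, had 52.1, 103.6 and 94.25 FPKM in G3 PGC1aOE 1 to 3, against 55.39, 54.68, 52.22 and 49.81 FPKM in G3 1 to 4. The 4 G3 values lay close together, G3 PGC1aOE 1 lay among them and the other two G3 PGC1aOE libraries stood far above. Its promoter holds none of the 4 motifs searched. The log2 fold change of Mrpl20 was 0.65 (SE 0.25, 95% interval 0.11 to 1.19, edgeR adjusted p = 0.847), and an exact 2-sided permutation test over the 35 splits of 7 libraries gave p = 0.229, where the smallest possible value is 0.0286. The difference was -0.054 log2 CPM among libraries numbered below 80 and 0.98 among those numbered 80 and above.

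Mrps16, the counterpart of bacterial S16, whose loss in humans impairs mitochondrial translation, had 48.55, 126.3 and 106.1 FPKM in G3 PGC1aOE 1 to 3, against 50.11, 52.22, 57.53 and 70.78 FPKM in G3 1 to 4. Again G3 PGC1aOE 1 was at the bottom and the other two above all G3 libraries. Its log2 fold change was 0.70 (SE 0.30, edgeR adjusted p = 0.847), and an exact 2-sided permutation test gave p = 0.286. Its promoter carries 2 ETS cores (a second start that RefSeq lists for the gene has no match), and the reference transcripts hold 2 other genes of near-identical sequence, so reads may be split or shared. Mrpl52, a protein that bacterial ribosomes lack, had 52.2, 150.3 and 104 FPKM in G3 PGC1aOE 1 to 3, against 49.85, 65.24, 59.34 and 72.72 FPKM in G3 1 to 4. The log2 fold change of Mrpl52 was 0.73 (SE 0.32, edgeR adjusted p = 0.847; exact 2-sided permutation p = 0.229), with a pair of ETS cores in its promoter. With the length trend removed the log2 fold changes were 0.18 for Mrpl20, 0.17 for Mrps16 and 0.083 for Mrpl52, and with the sample number as a covariate they were 0.44, 0.27 and 0.31.

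Mrpl14 and Mrpl18 were, after Mrpl52, the shortest members of the large subunit. Mrpl14, the counterpart of bacterial L14 at the face between the subunits, had 55.53, 252.6 and 167.7 FPKM in G3 PGC1aOE 1 to 3, against 67.51, 106.5, 106.5 and 123.4 FPKM in G3 1 to 4. Mrpl18, which in human cells is known also as a carrier of ribosomal RNA into mitochondria, averaged 158 ± 52.3 FPKM in G3 PGC1aOE and 126 ± 31.7 FPKM in G3. In both, the group ranges overlapped.

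Mrpl47, at 1797 bp, had the lowest p-value of the long members, although Mrps14 had a larger log2 fold change (0.52) and Mrpl51 (0.49), Mrpl33 (0.45), Mrpl57 (0.43) and Mrps30 (0.43) came close to it. Mrpl47 had 11.84, 18.39 and 21.51 FPKM in G3 PGC1aOE 1 to 3, against 9.135, 11.97, 14.38 and 13.34 FPKM in G3 1 to 4. This gave a log2 fold change of 0.50 (SE 0.25, edgeR adjusted p = 0.847), which was still 0.50 with the length trend removed. Its exons overlap those of Actl6a and of Ndufb5, a Complex I subunit. These libraries do not mark strand, so reads in the shared stretches cannot be told apart. The extent of the overlap was not measured.

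The 6 members with negative fold changes were all long, and the 95% interval of each included 0; the one not described here is Mrpl3. Mrps2, the counterpart of bacterial S2 on the back of the small subunit, had 6.674, 6.134 and 8.313 FPKM in G3 PGC1aOE 1 to 3, against 7.802, 7.08, 11.01 and 8.037 FPKM in G3 1 to 4. The log2 fold change of Mrps2 was -0.27 (SE 0.23, edgeR adjusted p = 0.847), and the groups overlapped. Mrps34, a protein of the small subunit with no bacterial counterpart, had 16.86, 20.77 and 23.39 FPKM in G3 PGC1aOE 1 to 3, against 22.84, 21.56, 20.35 and 24.36 FPKM in G3 1 to 4 (log2 fold change -0.13, SE 0.20, edgeR adjusted p = 0.888).

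Mrpl39, whose promoter holds the overlapping NRF1 matches, had 23.75, 38.86 and 48.49 FPKM in G3 PGC1aOE 1 to 3, against 30.36, 40.49, 40.04 and 52.23 FPKM in G3 1 to 4. The lowest value of the 7 was again G3 PGC1aOE 1, but the other two did not pass the highest G3 library. For Mrpl39 the log2 fold change was -0.14 (SE 0.28, edgeR adjusted p = 0.922) and was 0.094 without G3 PGC1aOE 1. Mrpl9, the counterpart of bacterial L9 and likewise with NRF1 matches, had 32.09, 29.6 and 46.23 FPKM in G3 PGC1aOE 1 to 3, against 33.72, 38.28, 40.73 and 42.51 FPKM in G3 1 to 4. G3 PGC1aOE libraries held both the lowest and the highest value, and the log2 fold change was -0.11 (SE 0.22, edgeR adjusted p = 0.922). Mrpl50, a protein that bacteria lack, had 18.29, 19.04 and 28.97 FPKM in G3 PGC1aOE 1 to 3, against 17.47, 21.04, 30 and 25.03 FPKM in G3 1 to 4 (log2 fold change -0.081, SE 0.26, edgeR adjusted p = 0.947). The direction of Mrpl39, Mrpl9 and Mrpl50 turned when single libraries were left out.

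**Figure D4:**
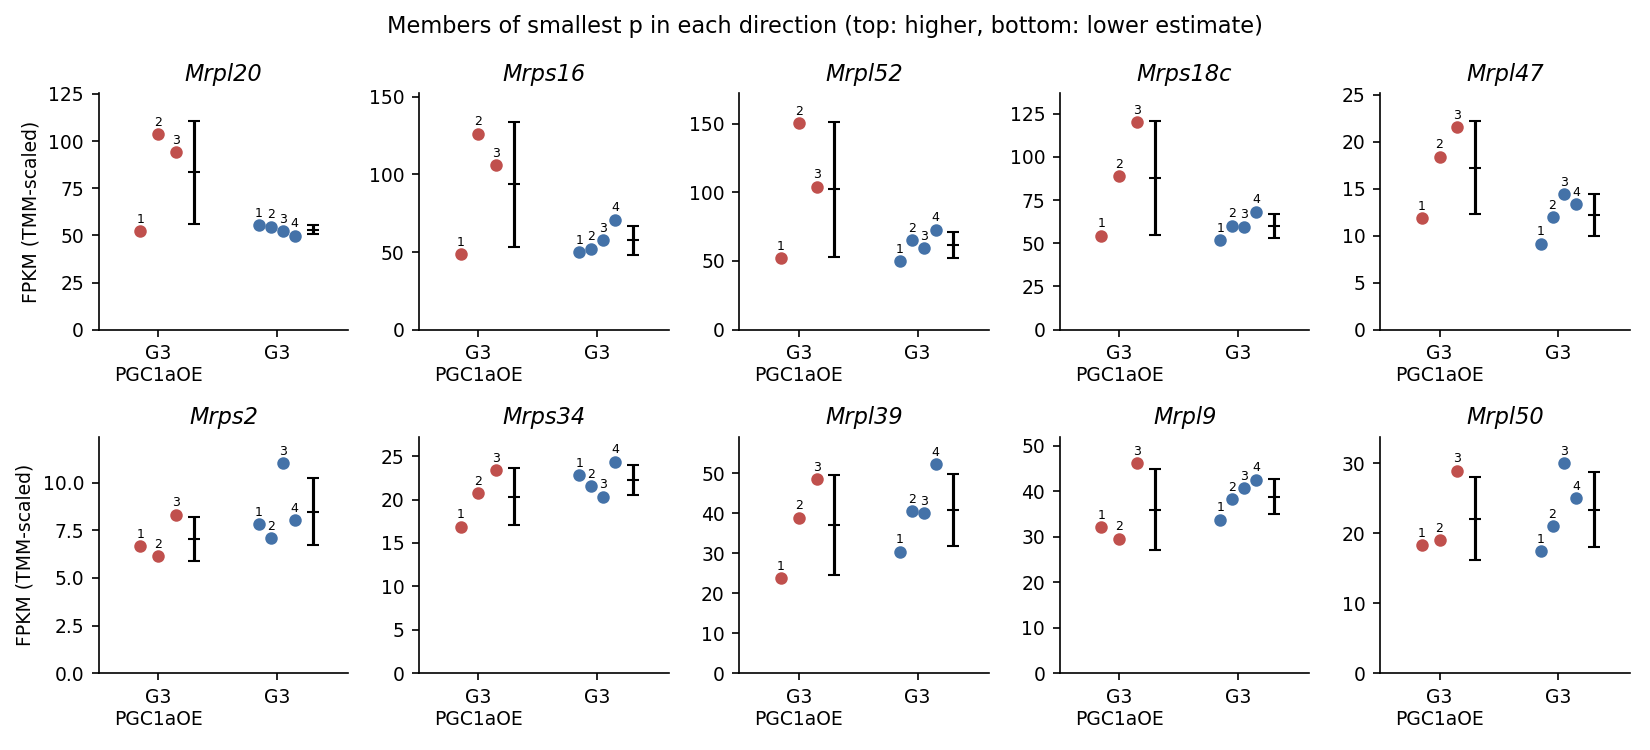
Level in FPKM of the members with the lowest p-values in either direction, 1 point per library marked with its replicate number, G3 PGC1aOE to the left of G3, with bars for the group mean and SD. In Mrpl20, Mrps16 and Mrpl52, 1 of the 3 G3 PGC1aOE points lies among or below the G3 points and the others lie above all of them.

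Members with and without promoter matches overlapped in fold change. The median log2 fold change was 0.35 for the 25 tested members with an ETS core, beside 0.26 for the 43 without it. The 8 with an NRF1 match had a median of 0.093 and the 60 without it 0.32, and 3 of those 8 were short. The 8 with a YY1 match had 0.33, beside 0.31 for the 60 without, and the 4 with an ERR match had 0.42, beside 0.28 for the 64 without. Of those with a match, 15 of 25 were short for ETS, 5 of 8 for YY1 and all 4 for ERR. All tested short members had a median of 0.44, and the part of length in these medians was not tested.

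Genes that work with the mitochondrial ribosome did not share one direction. The 5 tested proteins of the ribosome that carry other symbols were all positive, with a median log2 fold change of 0.39: 0.62 for Chchd1 and 0.11 for Dap3, both of the small subunit, 0.54 for Aurkaip1, of the small subunit, 0.39 for Gadd45gip1, of the large subunit, and 0.009 for Ptcd3, of the small subunit. Ict1, a release factor built into the large subunit, is already counted as Mrpl58. These directions rest on the setting: the list median was -0.0001 with the sample number as a covariate, and of 19 alternatives the sign turned in 9 for Ptcd3, in 6 for Dap3 and in 2 for Gadd45gip1 (-0.11 without G3 PGC1aOE 2). Chchd1 was 0.20 without G3 PGC1aOE 3, and Aurkaip1 0.25 without G3 PGC1aOE 2. Of the 15 tested translation factors 5 were positive and 10 negative, with a median of -0.20. They ranged from -0.53 for Taco1, a translational activator of the COX1 message (SE 0.46, edgeR adjusted p = 0.847), to 0.92 for Slirp, which with Lrpprc stabilises mitochondrial messages (SE 0.40, edgeR adjusted p = 0.847), and include -0.35 for Gfm1, the elongation factor that moves the ribosome along. Slirp was 0.60 without G3 PGC1aOE 3, and Gfm1 -0.12 without G3 PGC1aOE 2. Of the 22 genes listed with the mitochondrial aminoacyl-tRNA synthetases 4 were positive and 18 negative, with a median of -0.14. The list gave -0.66 for Lars2 and -0.35 for Iars2, which charge leucine and isoleucine transfer RNA. It also holds Gatb (-0.055), Gatc (-0.16) and Qrsl1 (-0.021), which are not synthetases, and Gars and Kars, which also serve the cytosol. Lars2 had 209, 50 and 222 counts in G3 PGC1aOE 1 to 3, against 191, 196, 260 and 278 counts in G3 1 to 4, and its log2 fold change was -0.22 without G3 PGC1aOE 2. The 25 assembly factors were divided, 13 positive and 12 negative, with a median of 0.0056, from 0.47 for Malsu1, which keeps unfinished large subunits apart, to -0.34 for Mettl15, a methyltransferase of the small subunit RNA. Without G3 PGC1aOE 2 these were 0.21 for Malsu1 and -0.12 for Mettl15. None of these genes passed at an adjusted p of 0.05. The median gene length was 1099 bp for the ribosomal proteins under other symbols and 1592 bp for translation factors. It was 1827 bp for the synthetase list and 1377 bp for assembly factors.

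Short genes of other machines stood where the short members did. Of 80 tested cytosolic ribosomal protein genes, paralogs included, all were positive with a median log2 fold change of 0.56 at a median length of 694 bp, and of 36 Complex I subunits 33 were positive with a median of 0.55 at 708 bp. With the length trend removed these medians were 0.19 and 0.057, beside 0.092 for the mitochondrial ribosomal proteins. With the sample number as a covariate they were 0.18 and 0.13, beside 0.0097 for all members and 0.037 for short members.

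**Figure D5:**
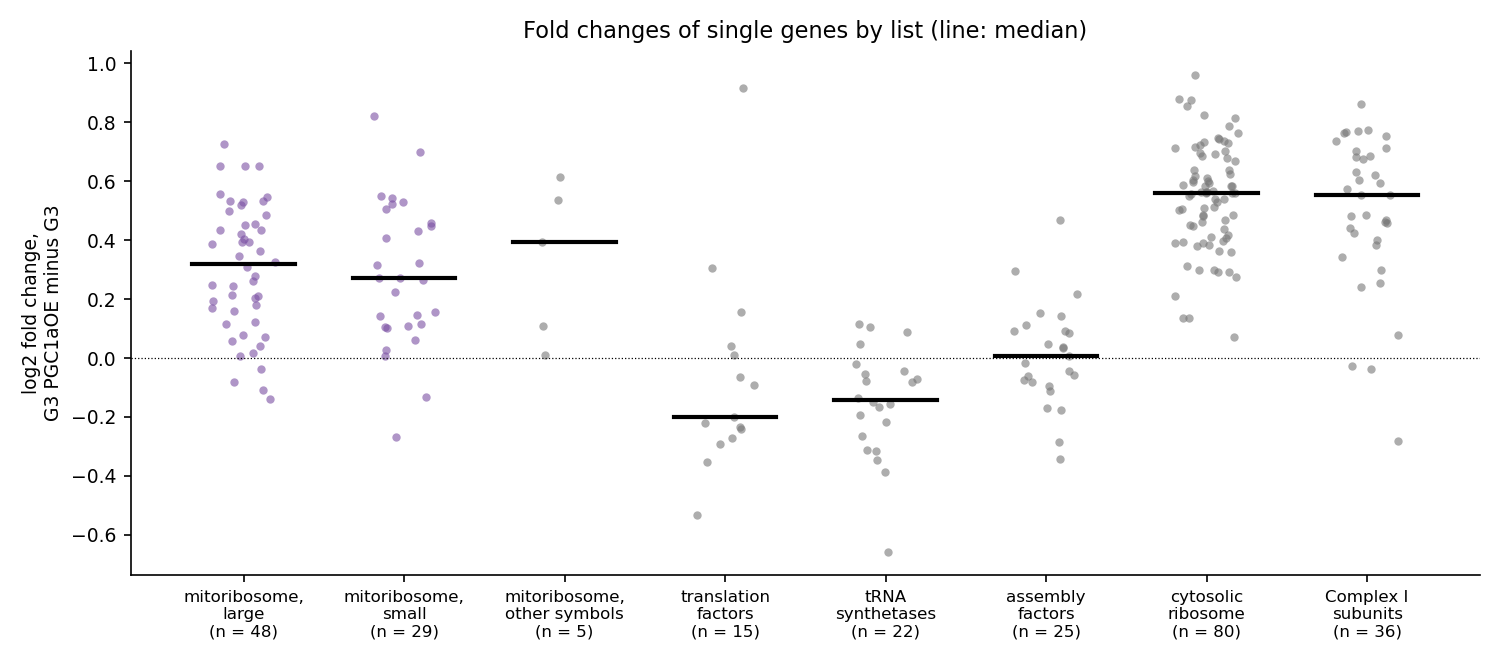
Log2 fold change (G3 PGC1aOE minus G3) of the members by subunit and of the compared gene lists, 1 point per tested gene, with lines at the medians. The synthetase list and the translation factors have medians below 0, at -0.14 and -0.20, and cytosolic ribosomal proteins have a median of 0.56.

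Cardiomyocyte markers had by far the highest summed level of the marker lists in both groups. Their summed level was 47741 to 71706 CPM in G3 PGC1aOE and 44792 to 61374 CPM in G3, and 4 of 8 were positive. Fibroblast markers summed to 1031 to 1698 CPM in G3 PGC1aOE and 598 to 1106 CPM in G3, and 7 of 8 were positive with a median log2 fold change of 0.85. Atrial markers ran from 468 to 3923 CPM in G3 PGC1aOE and from 72.3 to 2803 CPM in G3, with all 4 positive. Most of this sum was Nppa, with means of 1871 CPM in G3 PGC1aOE and 1387 CPM in G3. The median deviation of the 4 atrial markers ordered the libraries otherwise than the sum. In log2 CPM it was -3.23, -0.78 and 5.16 in G3 PGC1aOE 1 to 3, against 2.75, 3.53, -3.69 and -3.63 in G3 1 to 4. Adipocyte markers summed to 8.31 to 52.8 CPM in G3 PGC1aOE and 1.43 to 33.8 CPM in G3, with Ucp1 at 0 in every library, and lymphocyte markers reached at most 5.97 CPM in G3 PGC1aOE and 5.41 CPM in G3. Of the other lists, 6 of 8 endothelial, 7 of 8 macrophage and monocyte, 5 of 6 smooth muscle and pericyte, 3 of 3 tested Schwann cell and 4 of 4 epicardial and mesothelial markers were positive, as were 1 of 2 tested erythroid and 1 of 2 tested skeletal muscle markers. The part of these cell types in the members' values was not tested.

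Copies and neighbours limit some members. In the reference transcripts 19 members have another gene of at least 95% identity over at least 200 bases. For 2 of them such genes are themselves in the count table, 1 for Mrpl41 and 20 for Mrps26. Mrpl42, Mrpl30, Mrps21 and Mrps36, among the highest in level, have 1, 2, 1 and 4 such genes, none in the count table. Mrps26 averaged 13.5 ± 3.78 FPKM in G3 PGC1aOE and 12.6 ± 1.06 FPKM in G3. The exons of 23 members overlap another counted gene, and Mrpl46 and Mrps11 overlap each other on opposite strands. Among members with negative fold changes, Mrps34 overlaps Mapk8ip3 and Nme3, and Mrpl9 overlaps Oaz3.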

How the data were processed

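Per the labels' protocols, left ventricles were snap frozen and Trizol RNA went into a TruSeq library kit that does not mark strand. The submitters' processing notes name CASAVA, Bowtie 0.12.2 and mm9; the counting program, its annotation and its handling of shared reads are not known from these sources. The authors deposited whole-number read counts per Ensembl gene, and a table of FPKM that equals those counts divided by library total and by 1 length per gene (spread over libraries at most 0.0023 bp); that length is the gene model length used here. Symbols were found for 21748 of 22027 identifiers. The members and gene lists were chosen with earlier results of these data known. Counts were scaled by TMM, filtered with filterByExpr (12674 genes kept, 9353 left out) and tested with edgeR 4.0.16 (robust quasi-likelihood F-test, group as the only term, 2-sided, Benjamini-Hochberg adjustment at 0.05) under R 4.3.3. Log2 CPM used a prior count of 2. The SE is the log2 fold change divided by the root of F. Alternatives were DESeq2 1.42.0, limma 3.58.1 (voom with quality weights, and log2 FPKM with pseudocounts of 1 and 0.1), RLE scaling, other filters, a replicate block, the number or text of the sample code as a covariate, a lowess trend over length (span 0.3) removed, and each library left out. Both code covariates had 2 levels, the number split at 80 and the text by whether it holds G2. Named members were the 5 with the lowest p in each direction, plus the 3 highest, lowest, shortest and longest per subunit; those named otherwise were chosen for their family or place in the length order after values were seen, as was Taco1. Similar genes and overlaps came from GENCODE M21 on GRCm38 and promoters from RefSeq GRCm38.p6, a later build than mm9; of 15 named members with a promoter match, 9 are printed to limit length, with Mrpl20, which has none. The edgeR test was also run on simulated counts whose levels and spread came from the fit to these data. Its recovery is not reported here.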

Additional observations from a re-analysis of the deposited data

How the results depend on the processing

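No member was called under any of the settings run, including each library left out. Leaving out single libraries gave 56 to 73 positive members, a member median log2 fold change of 0.084 to 0.53, large and small subunit medians of 0.12 to 0.56 and 0.032 to 0.52, short and long medians of 0.18 to 0.71 and 0.013 to 0.34, short minus long of 0.17 to 0.37 and large minus small of 0.0099 to 0.091; the low ends came without G3 PGC1aOE 2 and the high ends without G3 PGC1aOE 1, except that large minus small was lowest without G3 3 and highest without G3 PGC1aOE 2. With the sample number as a covariate 42 members were positive, large minus small was -0.038, short minus long 0.0596, the median of ribosomal proteins under other symbols -0.0001, Dap3 -0.045, Ptcd3 -0.0001 and Gadd45gip1 -0.014. With the length trend removed short minus long was -0.11 and Dap3 -0.03. With both, a setting chosen after the data were seen, 26 members were positive, the medians were -0.0705 for all, -0.088 for large, -0.094 for short members and 0.0007 for ribosomal proteins under other symbols, large minus small was -0.053, short minus long -0.061, Aurkaip1 -0.023 and Dap3 -0.093. With voom, large minus small was 0.13, Mrpl9 0.037 and Mrpl50 0.11. Tests on log2 FPKM with pseudocounts of 0.1 and 1 shifted the median of all genes to -0.11 and -0.081, with 55 members positive in each, and gave -0.024 and -0.023 for Dap3 and -0.063 and -0.062 for Ptcd3; Ptcd3 was -0.0093 with DESeq2 and -0.012 with no filter on low counts. By library left out, Mrpl39 ran from -0.38 to 0.094 (0.0053 without G3 4), Mrpl9 from -0.33 to 0.013, Mrpl50 from -0.33 to 0.048 (0.034 without G3 PGC1aOE 1 and 0.016 without G3 PGC1aOE 2), Dap3 from -0.081 to 0.25, Gadd45gip1 from -0.11 to 0.68 and Ptcd3 from -0.14 to 0.21 (-0.0046 without G3 PGC1aOE 1, -0.088 without G3 PGC1aOE 3 and -0.052 without G3 1). The cause was not tested. Deviations of same-numbered libraries from their group means correlated at 0.46, 0.12 and -0.09, and those of the other pairs at -0.47 to 0.33. Deviations within a group sum to 0, so these values cannot decide whether the numbers pair the samples. With the replicate block (3 pairs, without G3 4) 0 members and 4 of 12586 genes (0.0318%) were called. In that fit 9 members had an unadjusted edgeR p under 0.05, 71 members were positive and the member median was 0.34. Counts were too low to test Mrpl53.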
